A study of Mus musculus with 9 samples.

Results

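MyoD1 peaks at 10 genes of TGF-beta and BMP signalling, of 21938 protein-coding genes annotated on the assembled chromosomes, were examined in mouse C2C12 myoblasts, a skeletal muscle precursor line. They were chosen by name: the ligands Mstn, Tgfb1 and Bmp4, the receptors Acvr2b and Tgfbr2, the intracellular mediators Smad3, Smad6 and Smad7, and the extracellular binding proteins Fst and Ltbp1. A peak belonged to a gene if it overlapped, by 1 bp or more, the gene body with 10 kb on each side (genome build mm10, GENCODE vM21 annotation). Across the 6 libraries 185 of 116126 listed peaks met this rule, and after overlapping peaks were merged they formed 79 of 58309 regions.

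All 6 libraries came from the same cells, in which endogenous MyoD1 carried an N-terminal 3xF-HaloTag and an additional dox-inducible 3xF-Halo-MyoD1 had been introduced. The knock-in was a single clone, so the groups describe that clone. Of the libraries, 3 were untreated ("no dox") and 3 were treated with doxycycline for 6 h ("+dox"), in each case with the switch to differentiation medium made at the same time according to the methods of the study. CUT and RUN with an antibody to the Flag tag recovered tagged MyoD1 from both sources, and endogenous and transgenic protein cannot be told apart. The 3 libraries of wild-type cells, which lack the tag, were not analysed here. The level of these peaks without Flag is therefore not given.

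Ligands of the TGF-beta family bind paired type I and type II receptor kinases at the cell surface, which phosphorylate Smad2 and Smad3 (TGF-beta, activin and myostatin) or Smad1, Smad5 and Smad9 (BMP), and these enter the nucleus with Smad4. In its TGF-beta, activin and myostatin branch the pathway restrains muscle. Myostatin limits muscle mass, follistatin sequesters it, and Smad3 signalling is known to oppose myogenic differentiation. MyoD1 is a basic helix-loop-helix factor that binds E-boxes, of which CAGCTG and CAGGTG are the forms most typical of muscle, and AP-1 sites with the letters TGANTCA are frequent neighbours in enhancers.

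The windows of 5 regions are printed to show the called sequence: those of the highest mean height over the 6 libraries at Smad3, Tgfb1, Tgfbr2 and Bmp4, and the region found with dox alone. They are on the + strand of the reference (GRCm38, the assembly of mm10), in lower case, with E-box or AP-1 letters in capitals. The Tgfb1 and Tgfbr2 windows overlap annotated UTRs and are shown as sites of 30 bases.
Smad3, intron, chr9:63702626-63702925: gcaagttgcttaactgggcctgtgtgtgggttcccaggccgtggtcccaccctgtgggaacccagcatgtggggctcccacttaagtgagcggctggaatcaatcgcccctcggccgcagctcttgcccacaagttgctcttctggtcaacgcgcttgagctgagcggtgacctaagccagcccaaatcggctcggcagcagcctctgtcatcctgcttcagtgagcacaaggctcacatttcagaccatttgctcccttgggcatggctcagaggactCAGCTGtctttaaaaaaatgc
Tgfb1, within Ccdc97, AP-1 letters, chr7:25711859-25711888: caggccatggcTGAGTCAcaggcagccatc
Tgfb1, within Ccdc97, E-box, chr7:25711930-25711959: gggccctgtggcCAGCTGggggcagggaca
Tgfb1, within Ccdc97, AP-1 letters, chr7:25711977-25712006: tctgtgtgtgaTGACTCAagacccatgata
Tgfbr2, promoter, AP-1 letters, chr9:116175273-116175302: gtgcgcgcgagTGACTCActcatcaacttt
Tgfbr2, promoter, E-box, chr9:116175330-116175359: actcctcgccaaCAGCTGggcaggacctct
Bmp4, intron, chr14:46387376-46387675: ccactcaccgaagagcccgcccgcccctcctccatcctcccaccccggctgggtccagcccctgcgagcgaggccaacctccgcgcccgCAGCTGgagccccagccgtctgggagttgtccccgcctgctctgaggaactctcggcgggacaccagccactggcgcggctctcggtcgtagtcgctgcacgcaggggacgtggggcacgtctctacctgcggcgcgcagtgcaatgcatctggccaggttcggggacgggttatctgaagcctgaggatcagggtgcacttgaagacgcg
Tgfb1, called with dox alone, chr7:25710026-25710325: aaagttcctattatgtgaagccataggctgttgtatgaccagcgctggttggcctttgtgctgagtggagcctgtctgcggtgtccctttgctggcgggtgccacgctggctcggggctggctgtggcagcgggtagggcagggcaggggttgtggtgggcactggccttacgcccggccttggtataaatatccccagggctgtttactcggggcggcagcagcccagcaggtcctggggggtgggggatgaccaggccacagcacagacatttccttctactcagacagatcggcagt

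Each deposited list gave a peak's position, its total signal and its maximum signal, in CPM, alignments scaled to the depth of the library. The lists held 9389, 13877 and 13403 peaks without dox and 12536, 13260 and 53661 with dox, so +dox replicate 3 stood apart by length. The smallest step between maxima corresponded to 1 alignment and gave a depth of 2868000 to 4667000 alignments in 5 libraries and 8030000 in +dox replicate 3. Between 94.8% and 99.2% of the maxima in a list were even numbers of alignments, and an alignment was therefore not treated as an independent fragment. The lists also started at different levels: the lowest total signal was 861, 869 and 354 without dox and 837, 904 and 336 with dox. Because the libraries differed in depth, a peak's height was expressed as a percentile, the percent of peaks in its own list with a maximum at or below its own. Such a percentile still depends on list length, as a list with more weak peaks places the same peak higher. Lists of equal length were compared as well.

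Before the comparison of groups, the loci themselves were described. At the 10 loci, no dox replicates 1, 2 and 3 held 18, 23 and 23 peaks, and the +dox replicates held 23, 23 and 75. The count of 75 belonged to the list of 53661 peaks, and the other 5 libraries held 18 to 23. Peaks fell at 7, 9 and 6 of the 10 genes without dox and at 8, 8 and 9 with dox. Of the 79 regions, 46 were called in a single library, and the share of all regions called once was not counted. Calls in +dox replicate 3 alone were found at 41 of the 79, compared with 59.2% of all 58309 regions. A maximum in a region called once was made of 6 to 54 alignments (median 10), compared with 10 to 275 (median 40) in regions called in all 6 libraries.

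A region was termed Core if a peak was called there in at least 2 of 3 no dox libraries, and Expanded if at least 2 of 3 +dox libraries called it and no Core region overlapped. Of the 79 regions, 18 held a Core region, compared with 16.1% of all regions, and 9 held an Expanded region without a Core region, compared with 9.16%. One of those 9, at Smad6, held a pair of Expanded regions, which gives 10 in all. The remaining 52 met neither definition. A peak was called in all 6 libraries at 11 regions, compared with 8.3% of all regions. Core regions lay at 7 of the 10 genes (35.5% of all protein-coding genes) and Expanded regions at 4 (25.6%). The loci held 8.25 regions per 100 kb, compared with 4.16 over all gene loci. As the genes were picked with peak calls known, these shares describe the loci and are not evidence that the pathway was preferred.

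**Figure D1:**
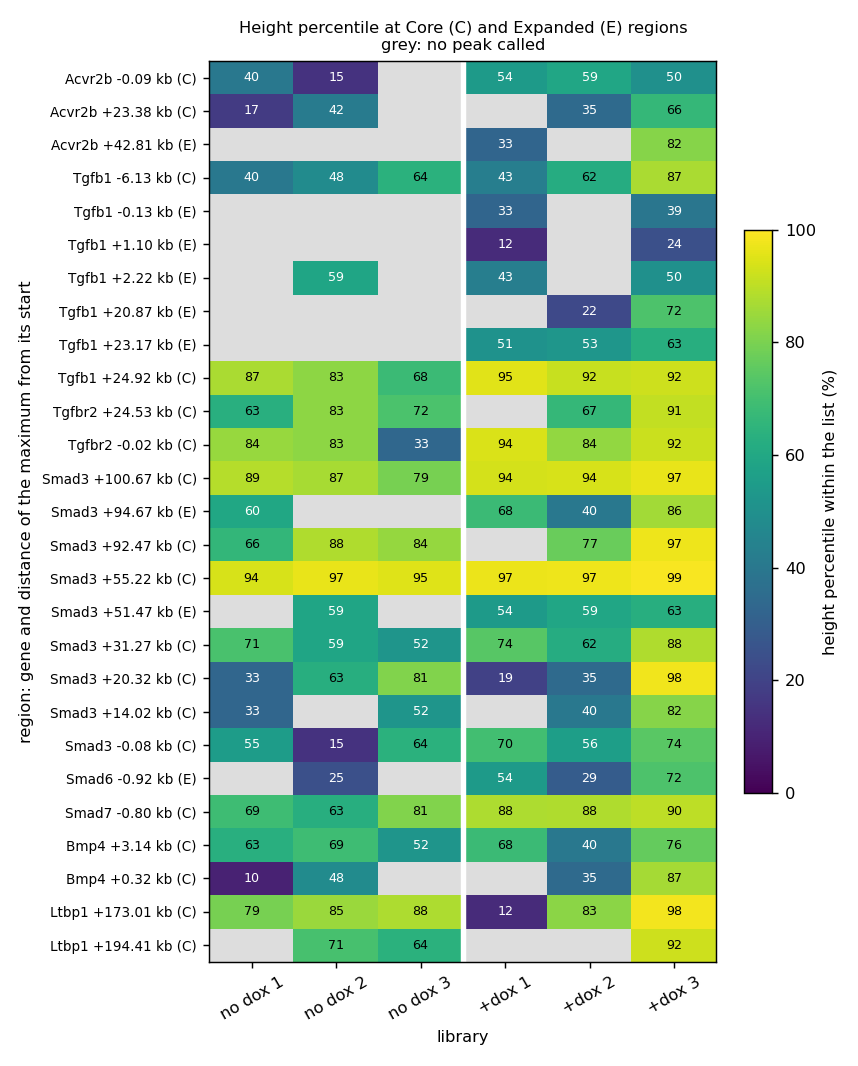
Height percentile within each library's own list (colour and number) at the 27 Core (C) or Expanded (E) regions of the 10 loci (rows, labelled by gene and distance of the maximum from the gene's start in kb) in the 6 libraries (columns), with grey where no peak was called. The Smad3 region at +55.22 kb was above the 94th percentile in every library, whereas the Ltbp1 region at +173.01 kb ranged from 12.4 to 98.4 with dox.

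Among the ligands, Mstn (ENSMUSG00000026100.6, chr1:53061640-53068079, + strand), which encodes myostatin, had no peak in any of the 6 lists. The nearest region on either side lay 69.3 kb from the gene and was called in no dox replicate 1 alone. A locus without a region was frequent, at 28.2% of protein-coding genes, and at this depth the lists do not show that MyoD1 was absent there.

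Tgfb1 (ENSMUSG00000002603.15, chr7:25687002-25705077, + strand), which encodes the TGF-beta ligand that is secreted in latent form, had 8 regions. Of these, 2 were Core, 5 were Expanded, and 2 were called in all 6 libraries. The numbers of peaks without dox were 2, 3 and 2, and with dox 6, 4 and 8, the last from the longest list. The highest region (chr7:25710551-25713500) lay downstream of the gene, 24.9 kb from the Tgfb1 start and within the neighbouring gene Ccdc97. It cannot be assigned to either gene. Its percentile was 87.3, 83.0 and 68.1 without dox and 95.4, 91.6 and 92.4 with dox. Every +dox library was above every no dox library, with maxima of 62, 46 and 20 alignments without dox and 164, 106 and 76 with dox. The window of 300 bases around its maximum held 1 CAGCTG between 2 AP-1 matches, as printed above.

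The second shared region at Tgfb1 (chr7:25680051-25681400) lay 6.13 kb upstream of the start, with its maximum 20 bp from the start of B9d2, and cannot be assigned to either gene. It was at 39.9, 48.2 and 63.8 without dox and at 42.9, 61.8 and 87.2 with dox, and the groups overlapped. The 5 Expanded regions of Tgfb1 lay at −0.13, 1.1, 2.22, 20.87 and 23.17 kb from its start, and 1 of them, at 2.22 kb, was also called in no dox replicate 2. The region at 23.17 kb (chr7:25710001-25710350) was the only 1 of the 79 called in every +dox library (3 of 3) and in no untreated one (0 of 3), compared with 1.09% of all regions. It ended at base 25710350, close to base 25710551, where the highest Tgfb1 region, called in all 6 libraries, began. The region at 23.17 kb was of moderate height, at 51.1, 52.7 and 62.8, with maxima of 24, 26 and 16 alignments. Its maximum lay 5930 bp from the annotated start of Ccdc97, and its window held none of the 3 motifs searched. The reverse, calls in the 3 untreated libraries alone, was found at 0 regions of the 10 loci, compared with 0.00858% of all regions.

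Bmp4 (ENSMUSG00000021835.15, chr14:46383520-46390669, − strand), which encodes a BMP ligand, had 5 regions, 2 of them Core and none Expanded. The region called in all 6 libraries (chr14:46386801-46388950) had its maximum in an intron 3.14 kb from the start, 7 bp from the start of the noncoding gene Gm15222. It was at 63.1, 68.8 and 52.1 without dox and at 68.1, 39.9 and 76.2 with dox, so that the lowest and the highest values both belonged to +dox libraries. The mean was 61.3 ± 8.47 without dox and 61.4 ± 19.1 with dox (SD, n = 3 each). The other Core region lay at 0.32 kb, in a UTR, and was called in no dox replicates 1 and 2 at 9.62 and 48.2 and in +dox replicates 2 and 3 at 34.7 and 86.6, the last being the highest single peak of the locus.

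Among the receptors, Acvr2b (ENSMUSG00000061393.14, chr9:119402118-119434995, + strand), a type II receptor for activin and myostatin, had 8 regions, of which 2 were Core and 1 Expanded. None was called in all 6 libraries, because no dox replicate 3 held no peak at this locus. The promoter region (chr9:119401551-119403100), 92 bp from the start, was called in the other 5, at 39.9 and 14.6 in no dox replicates 1 and 2 and at 54.4, 59.1 and 50.2 with dox. The value of 14.6 rested on 10 alignments. With no dox replicate 3 lacking a value, this region was not among those compared between groups. The Expanded region at 42.81 kb, beyond the 3′ end of the gene, had its maximum 17 bp from the start of the neighbouring gene Exog and cannot be assigned to either gene. It was called in +dox replicate 1 at 32.8 and in +dox replicate 3 at 81.7.

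Tgfbr2 (ENSMUSG00000032440.13, chr9:116084293-116175360, − strand), the type II receptor that binds TGF-beta, had 6 regions, 2 Core and none Expanded. Its promoter region (chr9:116174301-116176250), with the maximum 16 bp from the start, was called in all 6 libraries. The percentiles were 84.4, 83.0 and 33.4 without dox and 94.3, 83.9 and 91.8 with dox. No dox replicate 3 was low, at 10 alignments compared with 54 and 47 in its group. The groups overlapped only narrowly, between 84.4 without dox and 83.9 with dox. The second Core region was intronic at 24.53 kb (chr9:116150301-116151700), at 63.1, 83.0 and 71.8 without dox and 66.8 and 90.9 in +dox replicates 2 and 3, and it was not called in +dox replicate 1, the library of lowest depth.

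Among the intracellular mediators, Smad3 (ENSMUSG00000032402.12, chr9:63646767-63757994, − strand), which carries the TGF-beta, activin and myostatin signal to the nucleus, held the most regions: 23, with 7 Core, 2 Expanded and 5 called in all 6 libraries. By number of regions it stood at the 99.6th percentile of 21938 genes and by number of Core regions at the 99.9th, and it held 17.5 regions per 100 kb, compared with 21.0 at Tgfb1 and 20.7 at Smad7. Of its 23 regions, 10 were called in +dox replicate 3 alone. The numbers of peaks were 8, 8 and 11 without dox and 7, 9 and 22 with dox.

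**Figure D2:**
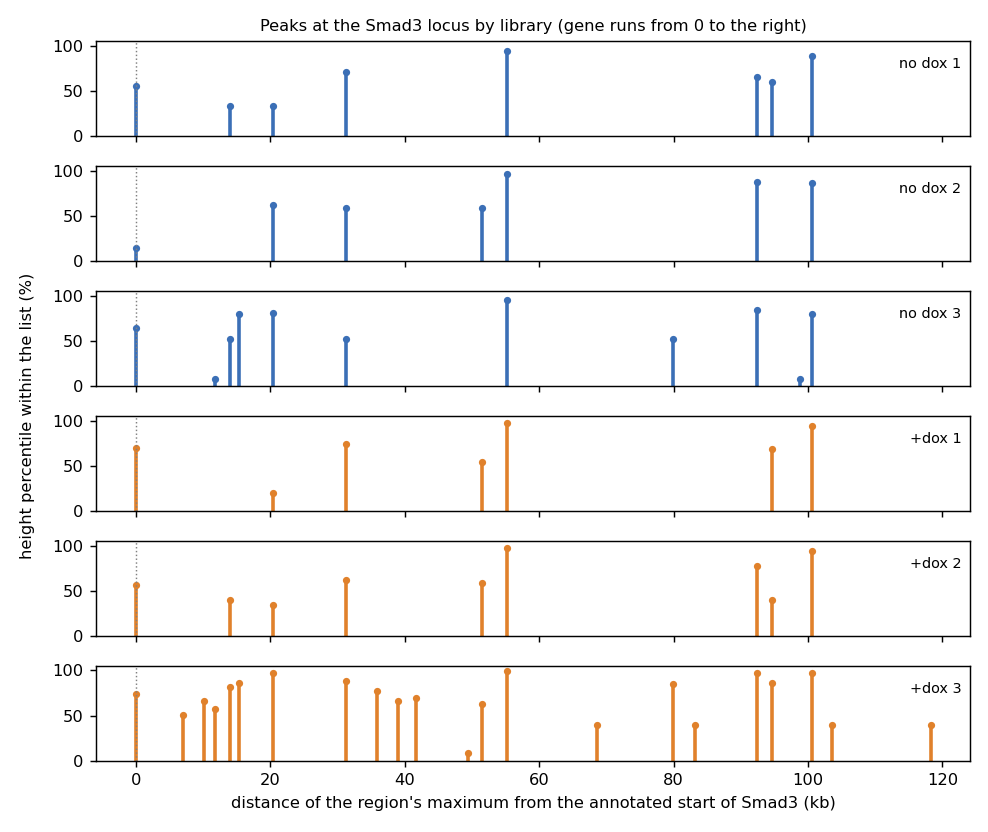
Peaks at the Smad3 locus in each library, drawn at the distance of the region's maximum from the annotated start of Smad3 (kb, gene running to the right) with the height percentile within the list as the vertical axis (no dox blue, +dox orange). The 5 regions called in all 6 libraries recur, with the highest at 55.2 kb, and the further regions are mainly those of +dox replicate 3.

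The highest Smad3 region (chr9:63701201-63703850) was intronic, 55.2 kb from the start. It reached 94.0, 96.9 and 95.1 without dox and 97.0, 97.4 and 98.9 with dox, with maxima of 98, 144 and 70 and of 212, 208 and 275 alignments, respectively. A second intronic region (chr9:63656401-63658200) at 100.7 kb was at 89.0, 86.9 and 79.4 without dox and at 93.7, 93.8 and 96.7 with dox. At both, every +dox library was above every no dox library. The window of the maximum held 1 CAGCTG at either region, which at the highest one lies at base 280 of the 300 printed.

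Another 3 Smad3 regions were called in every library without separating the groups. The promoter region (chr9:63756051-63758750), 82 bp from the start, was at 55.4, 14.6 and 63.8 without dox and 69.6, 56.1 and 74.3 with dox. The intronic region at 31.3 kb (chr9:63725501-63727050) was at 71.4, 58.6 and 52.1 and at 74.0, 61.8 and 88.2, respectively. The intronic region at 20.3 kb (chr9:63736801-63738850), whose window held 3 CAGCTG, was at 33.1, 62.6 and 81.1 without dox and at 19.4, 34.7 and 97.7 with dox. Here the libraries numbered 3 of both groups were the highest, with 30 and 180 alignments compared with 12 to 24 in the other 4. The Expanded regions, at 94.67 and 51.47 kb, were called in 3 of 3 +dox libraries and in 1 no dox library each, so each also had an untreated call. The remaining Core regions were intronic, and both lacked a call in +dox replicate 1. That at 92.47 kb was at 66.0, 88.0 and 84.2 without dox and 77.1 and 97.3 in +dox replicates 2 and 3. That at 14.02 kb was at 33.1 and 52.1 in no dox replicates 1 and 3 and at 39.9 and 81.7 in +dox replicates 2 and 3.

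Smad6 (ENSMUSG00000036867.7, chr9:63953076-64022059, − strand) and Smad7 (ENSMUSG00000025880.11, chr18:75367529-75395935, + strand) are the inhibitory Smads, which block receptor signalling and are themselves induced by it. They differed from each other in their calls. Smad6 had no Core region among 6 regions. Its promoter region (chr9:64020101-64023400) was Expanded, at 54.4, 29.0 and 72.1 with dox and 24.6 in no dox replicate 2, with no peak in no dox replicates 1 and 3. The other 5 regions of Smad6 were called in +dox replicate 3 alone.

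Smad7 had 10 regions, of which 1 was Core and 8 were called in +dox replicate 3 alone. Its Core region (chr18:75366251-75368000) was called in all 6 libraries, with the maximum 0.80 kb upstream of the Smad7 start and 362 bp from the start of Gm20544 on the opposite strand. It was at 68.8, 62.6 and 81.1 without dox and at 87.8, 87.9 and 89.9 with dox. Every +dox value lay above every no dox value, and the +dox values spanned a narrower range. The maxima were of 32, 24 and 30 alignments without dox and 86, 84 and 60 with dox.

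Among the extracellular binding proteins, Fst (ENSMUSG00000021765.9, chr13:114452290-114458951, − strand), which encodes follistatin, an inhibitor of myostatin and activin, had 2 regions and neither a Core nor an Expanded one. The region at its start (chr13:114458251-114460000) was called in no dox replicate 2 at 24.6, with 12 alignments, and in +dox replicate 3 at 39.4, with 10 alignments. The other was called in +dox replicate 3 alone.

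Ltbp1 (ENSMUSG00000001870.16, chr17:75005568-75392512, + strand), which encodes a latent TGF-beta binding protein that anchors the ligand in the matrix, is the longest of the 10 genes at 387 kb and had 11 regions, or 2.70 per 100 kb. Of these, 2 were Core, 8 were called in +dox replicate 3 alone, and none was Expanded. The region called in all 6 libraries (chr17:75177851-75179600) was intronic at 173 kb, with its maximum 234 bp from an internal start of Ltbp1. It was at 79.5, 84.9 and 87.6 without dox and at 12.4, 82.7 and 98.4 with dox, with 44, 50 and 40 and with 10, 62 and 222 alignments, respectively. The +dox libraries thus held both the lowest and the highest value. The second Core region, at 194.41 kb, was called in no dox replicates 2 and 3 and in +dox replicate 3.

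The question of the design was whether added MyoD1 changed occupancy, and it was asked first over the 10 loci as a whole. The loci took 0.192, 0.166 and 0.172% of the list without dox and 0.183, 0.173 and 0.140% with dox. The mean share was 0.176 ± 0.0136% without dox and 0.166 ± 0.0229% with dox (SD, n = 3 each), a difference smaller than the spread (exact two-sided permutation test, p = 0.6, adjusted p = 0.6 over 3 tests). The median percentile of the peaks at the loci was 63.1, 58.6 and 63.8 without dox and 54.4, 59.1 and 62.8 with dox, and the difference of −3.10 points was within the spread (exact permutation test, p = 0.4, adjusted p = 0.6). With lists of equal length this difference was −16.1 (exact permutation test, p = 0.1). With 3 libraries in each group the smallest p that the test allows is 0.1, and no lower value could be reached.

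**Figure D3:**
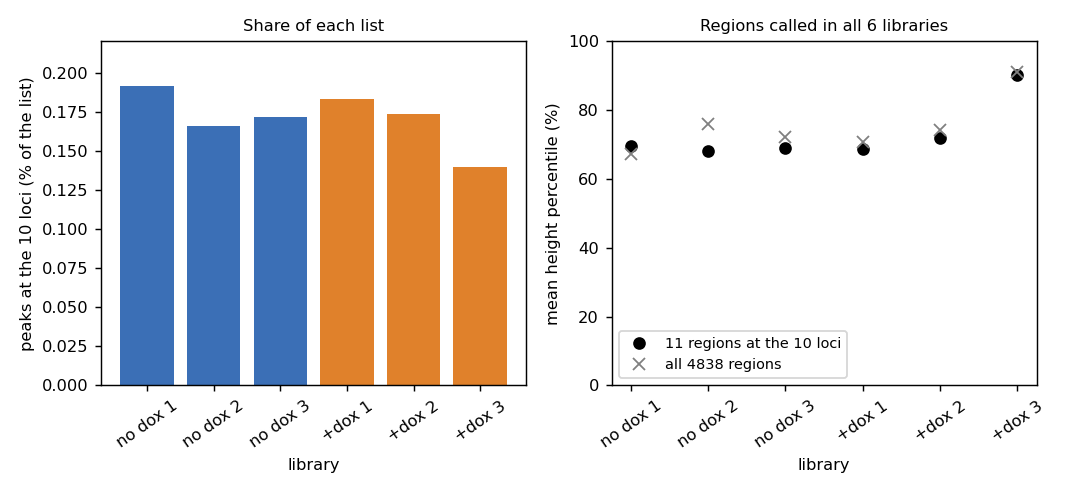
Left, bars give the peaks at the 10 loci as a percent of each library's list (no dox blue, +dox orange). Right, points give the mean height percentile of the 11 regions at the 10 loci called in all 6 libraries (circles) and of all 4838 such regions (crosses), which both stand near 90 in +dox replicate 3 and between 67 and 77 elsewhere.

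The 11 regions called in all 6 libraries were then compared directly. Their mean percentile was 69.6, 68.2 and 68.9 without dox and 68.6, 72.0 and 90.1 with dox, so that +dox replicate 3 stood apart and the other 5 libraries lay close together. The group means were 68.9 ± 0.718 and 76.9 ± 11.6 (SD, n = 3 each; exact permutation test, p = 0.3, adjusted p = 0.6). Without +dox replicate 3 the difference went from 8.0 to 1.38 percentile points. Over all 4838 such regions the mean percentile was 67.1, 76.1 and 72.3 without dox and 70.7, 74.2 and 91.1 with dox, and the high value of +dox replicate 3 was thus found across the genome. With each list shortened to its 9389 strongest peaks, 7 of the 11 regions were still called in all 6 libraries, and their mean percentile was 76.4, 61.8 and 53.7 without dox and 78.1, 75.4 and 55.2 with dox, so that both libraries numbered 3 were the lowest of their group. Over all regions called in all 6 shortened lists, the mean percentile was 74.6, 74.3 and 70.2 without dox. With dox it was 70.2, 74.0 and 67.2, so +dox replicate 3 was no longer the highest.

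In 4 of the 11 regions every +dox library was above every no dox library, compared with 23% of all 4838 regions. The 4 were those of Tgfb1 at 24.9 kb, Smad3 at 55.2 and 100.7 kb and Smad7. None was the reverse, compared with 0.0413%. Such separation always gives the smallest possible p of the exact permutation test, 0.1, so the p of these 4 adds nothing to it. The adjusted p of each over all 4838 regions was 0.435. The difference was 17.7 percentile points at Smad7, 13.7 at Tgfb1, 9.62 at Smad3 100.7 kb and 2.45 at Smad3 55.2 kb. The median difference was 13.4 points over the 11 regions and 5.86 over all 4838. The mean was higher with dox in 9 of the 11 and lower in 2, at Smad3 20.3 kb and Ltbp1.

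**Figure D4:**
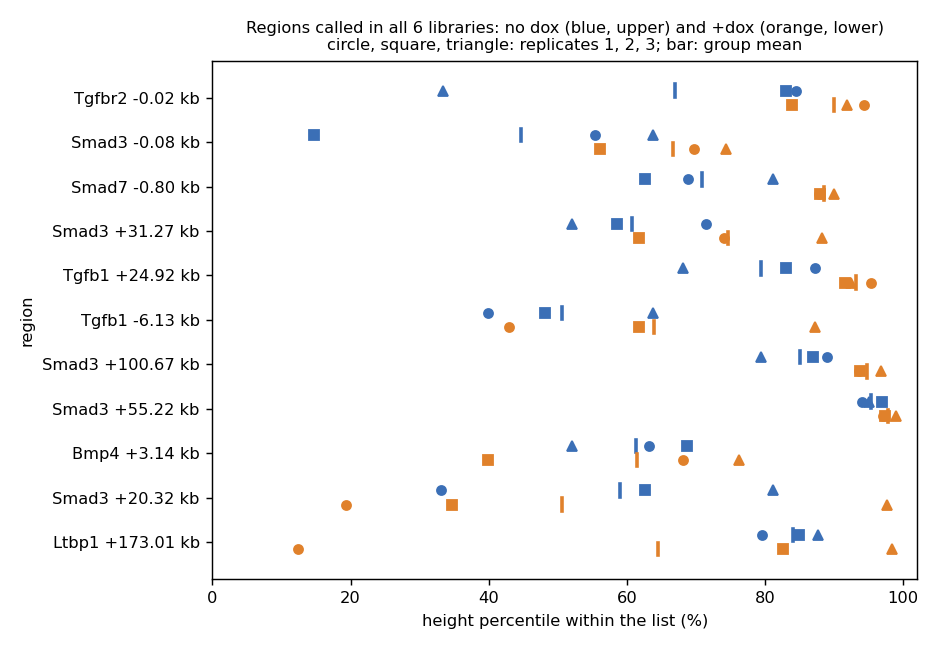
Height percentile within the list (horizontal axis) of the 11 regions called in all 6 libraries, ordered by the difference between groups, with each library as a point (no dox blue, +dox orange; circle, square and triangle for replicates 1, 2 and 3) and the group mean as a bar. The groups separate at Smad7, at Tgfb1 24.92 kb and at Smad3 100.67 and 55.22 kb, and the widest spread is that of Ltbp1 with dox.

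**Figure D5:**
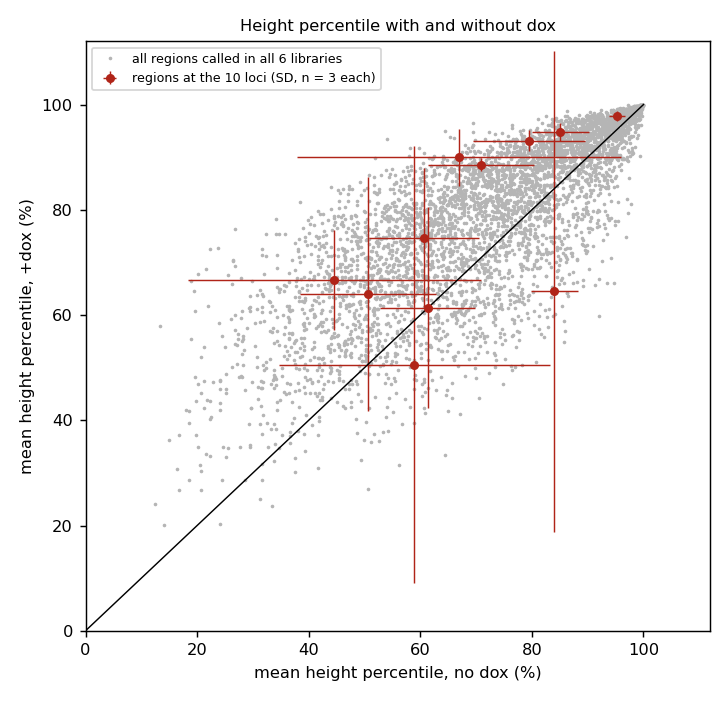
Mean height percentile with dox (vertical) against that without dox (horizontal) for all 4838 regions called in all 6 libraries (grey) and the 11 at the 10 loci (red, bars are the SD of 3 libraries in each group, which can pass 100), with the line of equality. Of the 11, 9 lie above the line and 2 below, as do 75.0% of all 4838 above it.

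On the scale of maximum signal in CPM the 4 regions with separate groups were partly different: Smad7, both of the Smad3 regions and Tgfb1 at 6.13 kb upstream, compared with 27.5% of all 4838 regions. Tgfb1 at 24.9 kb was the one that overlapped on this scale. The median difference was 0.99 on the log2 scale at the 11 regions and 0.91 over all 4838, and the rise in CPM at these loci was thus of similar size to that over all regions. In the shortened lists the groups separated in neither direction at any of the 7 regions (0 of 7), compared with 1.91% of regions upward and 6.78% downward. The mean was higher with dox in 6 of these 7. The share of all regions with a higher mean was not counted in the shortened lists, so this count describes the 7 alone. Their median difference was 7.25 percentile points, compared with −1.26 over all regions called in all 6 shortened lists. The difference in their mean, 5.57, was smaller than the spread (exact permutation test, p = 0.6). In +dox replicate 3 the Smad7 region then stood at 42.5, compared with 83.7 and 83.0 in +dox replicates 1 and 2.

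The highest peak of each gene was compared in the same way, over the 5430 protein-coding genes with a peak in all 6 libraries. Of the 10 genes, 6 could be compared, and in 3 every +dox library was above every no dox library, compared with 26.4% of genes. These were Tgfb1 (79.5 ± 10.05 without dox, 93.1 ± 1.99 with dox), Smad3 (95.3 ± 1.44 and 97.8 ± 0.984) and Smad7 (70.9 ± 9.43 and 88.6 ± 1.19; SD, n = 3 each; exact permutation test, p = 0.1 for each, adjusted p = 0.378 over all genes). Tgfbr2 (79.8 ± 6.89 and 90.0 ± 5.41), Bmp4 (61.3 ± 8.47 and 64.9 ± 23.5) and Ltbp1 (84.0 ± 4.16 and 64.5 ± 45.8) overlapped. No gene reached a smaller adjusted p than 0.378. In all 6 libraries the values of Tgfb1, Smad3 and Smad7 were those of regions already compared above, so they are not a separate result. Their p of 0.1 in the exact permutation test follows from the separation of the groups. The Tgfb1 value was that of the region within Ccdc97, beyond the gene body. Without the flank, Tgfb1 was not among the genes with a peak in all 6 libraries. With lists of equal length the differences at Tgfb1, Smad3 and Smad7 went from 13.7, 2.45 and 17.7 to 7.25, 1.20 and 7.51 (exact permutation test, p = 0.5, 0.3 and 0.6), and with +dox replicate 3 alone shortened to 9389 peaks they were 1.67, 0.69 and 1.89.

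Position and sequence were then described. A region had to overlap a gene body with 10 kb on each side, so its position partly follows from that rule. The genes were also chosen with earlier results of these data known. Of the 79 regions, 45 had their maximum in an intron, 9 in a coding exon, 4 in a UTR, 1 in another exon and 20 outside the gene body. Shares of these classes over all regions were not counted. Of the regions, 23 lay within 1 kb of an annotated start, compared with 27.1% of all regions, and of the 11 called in all 6 libraries 6 did so, compared with 54.4%. In the 300 bases around the maximum, the letters CAGCTG, which read the same on both strands, were found in 26 of the 79 windows, compared with 37.4% of all windows. They were found in 11 of the 18 Core windows (49.8% of all Core windows), in 1 of the 9 Expanded windows (38%) and in 7 of the 11 windows called in all 6 libraries (56.2%). The windows without CAGCTG among the 11 were those of Tgfb1 at 6.13 kb upstream, the Smad3 promoter, Smad7 and Ltbp1.

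The second E-box form, CAGGTG or its reverse complement CACCTG, was found in 13 of the 79 windows, compared with 28.7% of all windows. It was found in 2 of the 18 Core windows (24.7% of all Core windows), in 2 of the 9 Expanded windows (26.5%) and in 1 of the 11 windows called in all 6 libraries (24.8%). The AP-1 letters TGANTCA were found in 16 of the 79, compared with 17.7%, in 4 of the 18 Core windows (18.6%), in 1 of the 9 Expanded windows (16.6%) and in 2 of the 11, at Tgfb1 24.9 kb and at the Tgfbr2 promoter, compared with 19.5%. Both also held CAGCTG, and at both the percentile was above 80 in 5 of 6 libraries, with no dox replicate 3 the exception. The motifs were searched separately and share no letters at the matches printed above. A match describes the letters in the window and does not show that a factor was bound at that site.

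The rest of the pathway was described from a list of 54 other genes. A region was found at 52 of the 54, a Core region at 37 (35.5% of all protein-coding genes), an Expanded region at 19 (25.6%), and a merged region called in all 6 libraries overlapped the loci of 22 (21.7%). At 1 of the 22, Inhbb, which encodes an activin subunit, the merged region reached beyond the locus, and the peak within the locus was called in +dox replicate 3 alone. By role, Core regions lay at 3 of 11 ligands, 7 of 10 receptors and co-receptors, 5 of 5 signal-transducing Smads, 12 of 16 inhibitors and modulators, 5 of 6 latency and matrix genes and 5 of 6 targets. Ligands held the lowest share, and of the ligands Bmp2 and Bmp5, like Mstn, had no region at all. This list too was written with results of these data known, and a longer gene has more room for a peak.

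Among the 28 of these 54 genes with a peak in all 6 libraries, the highest percentile of every +dox library was above that of every no dox library in 7, compared with 26.4% of genes, and the reverse was found in 0 (0.0184%). A region with calls in the 3 +dox libraries and in none without dox was found at 3 of the 54, compared with 3.77% of genes. They were Ski, which encodes a repressor of Smad activity, Smurf2, a ubiquitin ligase that targets Smads and receptors, and Ltbp2, a relative of Ltbp1. Smurf2 had no peak in any no dox library, and its highest peaks with dox were at 57.1, 9.10 and 72.1. The highest mean percentiles of the list were those of Ltbp4 (99.7), a second latent TGF-beta binding protein, Thbs1 (95.8), which encodes thrombospondin 1, an activator of latent TGF-beta, and Pmepa1 (95.1), a TGF-beta target that restrains Smad signalling. Of the 10 genes, Smad3 alone, with group means of 95.3 and 97.8, reached the level of these.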

How the data were processed

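The 10 genes, the list of 54 others and the tests were chosen with earlier results of these data known. CUT and RUN reads were processed by the authors with the nf-core/cutandrun pipeline, and the deposited signal (total and maximum per peak, in CPM) came from peaks called per library with SEACR in relaxed mode on mm10, with deepTools among the tools in the submitters' processing notes. Settings not given there or in the study's methods are not given in the sources used here. The 6 files hold called peaks alone, so a missing call is not a signal of 0, and no read outside a peak was seen.

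From the lists, overlapping or adjoining peaks of the 6 libraries were joined into regions, and the highest peak of a library in a region was used. Loci were gene bodies with 10 kb flanks. Consensus (Core and Expanded) required 2 of 3 libraries. The difference in group means was tested by an exact permutation test (two-sided; 20 ways to assign 3 libraries to either group, smallest p 0.1), with Benjamini-Hochberg adjustment over all regions or genes tested. Replicates are biological according to the labels. The regions named were those called in all 6 libraries, those with calls throughout a single group alone, and the highest of each gene by mean percentile over the 6 libraries (0 where uncalled), and the further regions described were chosen after their values were seen; other pathway genes were named by a call with dox alone or by the highest mean percentile, except Bmp2 and Bmp5, named as the only 2 of the 54 without a region, and Inhbb, named after its values were seen. Motifs were searched in 300 bases centred on the middle of the maximum of a region's highest peak. Functions were tested on simulated lists. Alternatives were other flanks (0 or 50 kb), lists of equal length (9389 peaks), 1 threshold on maximum signal, ranks by total signal, windows of 250 bp on each side of the maximum, other consensus rules, leaving out libraries and the replicate block. Python 3.11.15, NumPy 2.4.6, pandas 2.3.3, SciPy 1.17.1 and Matplotlib 3.10.9 were used. Same-numbered libraries were not treated as pairs, as their deviations from the group means over 4838 regions did not correlate in every pair. Those of replicates 1 and of replicates 3 did correlate, and p-values with a replicate block are given below.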

Additional observations from a re-analysis of the deposited data

How the results depend on the processing

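Of 155 values recomputed under alternatives, 134 kept their direction and side of the threshold (for counts, within 1.5 times), 8 counts moved and 13 values reversed. The cause was not tested. The difference in the share of the list (−0.0108 percentage points) became 0.0178 with lists of equal length, 0.000782 with 1 threshold on maximum signal, 0.0101 with +dox replicate 3 shortened to 9389 peaks (an alternative chosen after seeing the data) and 0.00211 without +dox replicate 3, and ranged from −0.0197 to 0.00211 when each library was left out. The median percentile difference (−3.10) became 1.5 by total signal, −16.1 with lists of equal length (exact permutation test, p = 0.1) and −9.85 with +dox replicate 3 shortened, and ranged from −5.10 to −0.915 with a library left out. The mean difference at regions called in all 6 libraries (8.0) became −2.97 with +dox replicate 3 shortened, and ranged from 1.38 (without +dox replicate 3) to 11.4. In log2 CPM, also added after seeing the data, it was 1.03. The 10 Expanded regions became 4 with lists of equal length, 6 with 1 threshold, and 5 with a consensus of 3 of 3 libraries, with any no dox peak excluded, with replicates 1 and 2 only or with +dox replicate 3 shortened, and ranged from 5 (without +dox replicate 1 or 3) to 14 with a library left out. The 18 Core regions became 13 with a consensus of 3 of 3 libraries and 26 with a flank of 50 kb, and ranged from 14 to 18 with a library left out. The Bmp4 difference (3.54) became −17.5 with lists of equal length and −17.5 with +dox replicate 3 shortened, −12.0 with replicates 1 and 2 only, −1.08 without no dox replicate 3 and −7.34 without +dox replicate 3, reaching 16.0 at the highest. The Ltbp1 difference (−19.5) became 6.48 without +dox replicate 1 and was −36.5 at the lowest, and that of Tgfbr2 (10.2) became −2.65 with +dox replicate 3 shortened. The latter setting left 1.67 of 13.7 at Tgfb1, 0.69 of 2.45 at Smad3 and 1.89 of 17.7 at Smad7, lists of equal length left 7.25, 1.20 and 7.51, and Tgfb1 was at 7.99 without no dox replicate 3. Same-numbered libraries correlated at 0.365, −0.00870 and 0.505, and were not treated as pairs. Libraries of unlike number correlated at −0.497 to 0.175, below the values of replicates 1 and 3. With a replicate block the p-values (exact sign-flip permutation test over 8 patterns, smallest 0.25) were 0.5 for the share (−0.0108), the median (−3.10) and the mean (8.0), and no call changed.

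A maximum of 6 to 54 alignments lay under each region called once, and the lists give no value where no peak was called. Whether single calls depend on depth, list length or the lowest signal of a list was not tested.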
